A study of Mus musculus with 384 samples.

Results

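The 32 genes described here make cholesterol, sense its level in membranes, or move it through and out of the cell. They were taken as a list of gene names and matched by symbol to the count tables, where all 32 were found among 46078 gene rows, 45143 of which carry a symbol. The list holds 19 enzymes of the synthesis pathway, 5 genes of the SREBP machinery, the fatty acid synthase gene Fasn, 3 genes of sterol transport inside the cell, and 4 genes of the sterol receptor LXR and of efflux. RNA was read in single granulocyte/macrophage progenitors (GMPs), bone marrow cells on the way to neutrophils and monocytes. They were sorted from C57Bl/6 mice by the absence of lineage markers and Sca-1 and the presence of c-Kit, CD34 and FcγR.

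The BCR-ABL groups are BCR-ABL replicates 1, 2 and 4, from Scl-tTA::TRE-BCR/ABL mice, in which the transactivator tTA is driven by Scl regulatory sequence and the transgene is switched on by taking doxycycline away. BCR-ABL is the fusion kinase that drives chronic myeloid leukaemia. These mice were bred on 20 mg/L doxycycline in their drinking water, induced at 5 weeks of age, and analysed with the control mice 5 to 6 weeks later. The fourth group is 1 Control set, listed with the same 20 mg/L doxycycline, 5 weeks of age and 5 to 6 weeks to analysis. The labels do not state its genotype, so transgene, induction and doxycycline history cannot be told apart in it. No label states that the sets come from different animals, so p-values measure only the spread between these sets, which may be technical in part. Each set held 96 wells, of which 76, 61 and 92 were kept for BCR-ABL replicates 1, 2 and 4 and 94 for Control, with 126.2, 121.4, 141.0 and 139.7 times 1e6 summed reads on genes. The genes of the sort gate were present in every set: Kit lay between 238.8 and 314.0 CPM (reads per 1e6 reads on genes), Fcgr3 between 568.6 and 688.4 CPM, and Cd34 was at 440.1 CPM in Control and lower in BCR-ABL replicates 1, 2 and 4, at 146.0, 180.5 and 157.6 CPM. Xist, the transcript of the inactive X chromosome, reached 5 CPM in 75 of 76, 0 of 61 and 3 of 92 kept wells of BCR-ABL replicates 1, 2 and 4. In Control it did so in 94 of 94. The sets thus also differ in sex-linked RNA, and replicate 1 is unlikely to share an animal with replicates 2 and 4.

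Cholesterol is built from acetyl-CoA in a long chain of reactions, first to mevalonate and the isoprenoid farnesyl diphosphate, then through squalene and lanosterol to cholesterol. When sterols in the endoplasmic reticulum run low, SCAP carries SREBP proteins to the Golgi, where they are cut and released to switch on the synthesis genes, while INSIG proteins hold SCAP back when sterols are plentiful. When sterols are in excess, LXR switches on ABCA1 and ABCG1, which pump cholesterol out of the cell, and MYLIP, a ubiquitin ligase that lowers lipoprotein uptake.

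Many promoters of this pathway carry the CCAAT box that NF-Y binds beside SREBP. RefSeq promoter sequence (build GRCm38.p6, 250 bases before to 50 bases after the annotated start) was found for 26 of the 32 genes. Fdps, Fdft1, Sqle, Stard4, Npc1 and Abcg1 had none and were not searched. The letters CCAAT, on either strand (ATTGG on the other), occurred in 22 of those 26 promoters (84.6%) and in 15 of 16 synthesis enzymes with a promoter, against 41.1% of all 27025 genes with such a promoter and 42.3% of the genes tested below that have one. A gene was counted where any of its listed promoters held the letters, and per promoter the share was 37.4% of all 32851. Promoters of Abca1, Acat2, Nr1h2 and Scap held no CCAAT, and 14 members held at least 2 in 1 promoter. The sterol response element, searched only as TCACNCCAC or GTGGNGTGA, occurred in 1 of the 26 members, Hmgcs1, and in 1.44% of all genes with a promoter. GGGCGG or CCGCCC occurred in 22 of 26 members and in 63.5% of tested genes with a promoter. A match is a string of letters in this window and not a measured binding site.

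Shown here are 250 bases before the start, 5′ to 3′ on the gene's strand, for Fasn, Hmgcs1, Mvk and Mylip. Fasn had the smallest p of the members in all 3 comparisons of wells within sets. Hmgcs1 was the member searched that held the letters taken for the sterol response element. Mvk held the most CCAAT boxes (5 in the whole window). Mylip had the smallest p of the members above Control outside the synthesis pathway. Capitals mark CCAAT or ATTGG, and in Hmgcs1 also TCACCCCAC. The stretches lie at chr11:120824548-120824797 on the minus strand (Fasn), and on the plus strand at chr13:119690101-119690350 (Hmgcs1), chr5:114444019-114444268 (Mvk) and chr13:45389492-45389741 (Mylip), each directly upstream of the annotated transcript start.
Fasn: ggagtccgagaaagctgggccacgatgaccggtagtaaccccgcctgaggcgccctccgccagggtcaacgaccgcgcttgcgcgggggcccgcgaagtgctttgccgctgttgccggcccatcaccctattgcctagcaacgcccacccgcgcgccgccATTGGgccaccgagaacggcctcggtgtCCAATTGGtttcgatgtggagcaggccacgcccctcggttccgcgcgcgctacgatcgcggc
Hmgcs1: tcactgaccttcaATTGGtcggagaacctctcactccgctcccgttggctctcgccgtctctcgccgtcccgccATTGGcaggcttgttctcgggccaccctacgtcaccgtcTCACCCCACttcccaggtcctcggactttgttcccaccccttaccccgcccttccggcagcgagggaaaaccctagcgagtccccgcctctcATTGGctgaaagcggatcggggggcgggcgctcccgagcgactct
Mvk: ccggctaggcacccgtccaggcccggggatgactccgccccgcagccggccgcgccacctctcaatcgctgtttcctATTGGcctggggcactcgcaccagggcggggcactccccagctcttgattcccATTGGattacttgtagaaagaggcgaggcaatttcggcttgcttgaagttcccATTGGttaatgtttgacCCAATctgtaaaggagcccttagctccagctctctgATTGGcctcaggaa
Mylip: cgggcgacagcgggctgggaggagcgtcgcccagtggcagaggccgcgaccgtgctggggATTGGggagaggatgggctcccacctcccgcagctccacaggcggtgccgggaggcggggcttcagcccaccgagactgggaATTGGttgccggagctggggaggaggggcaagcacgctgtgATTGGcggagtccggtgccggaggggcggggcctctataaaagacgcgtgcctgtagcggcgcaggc

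All 32 genes had reads in every set and passed the filter on low counts. Per kilobase of exon, Npc2, the small luminal carrier that takes cholesterol out of lysosomes, had the highest mean level of the list, 74.1 CPM per kb, followed by Ebp, the sterol isomerase, at 44.1 CPM per kb and Nr1h2, which encodes LXR beta, at 24.9 CPM per kb. The lowest were Abca1 at 0.174 and Idi1, the isopentenyl diphosphate isomerase, at 0.687 CPM per kb. Levels of genes with near-identical copies are uncertain, because reads that fit more than 1 place may have been left out of the counts. The 19 enzymes together took 504.9, 553.7 and 517.9 CPM in the BCR-ABL sets (525 ± 25.3, SD, n = 3) and 495.0 CPM in Control. Control was the lowest of the 4 sets, by less than the SD of the BCR-ABL sets below the nearest of them.

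**Figure D1:**
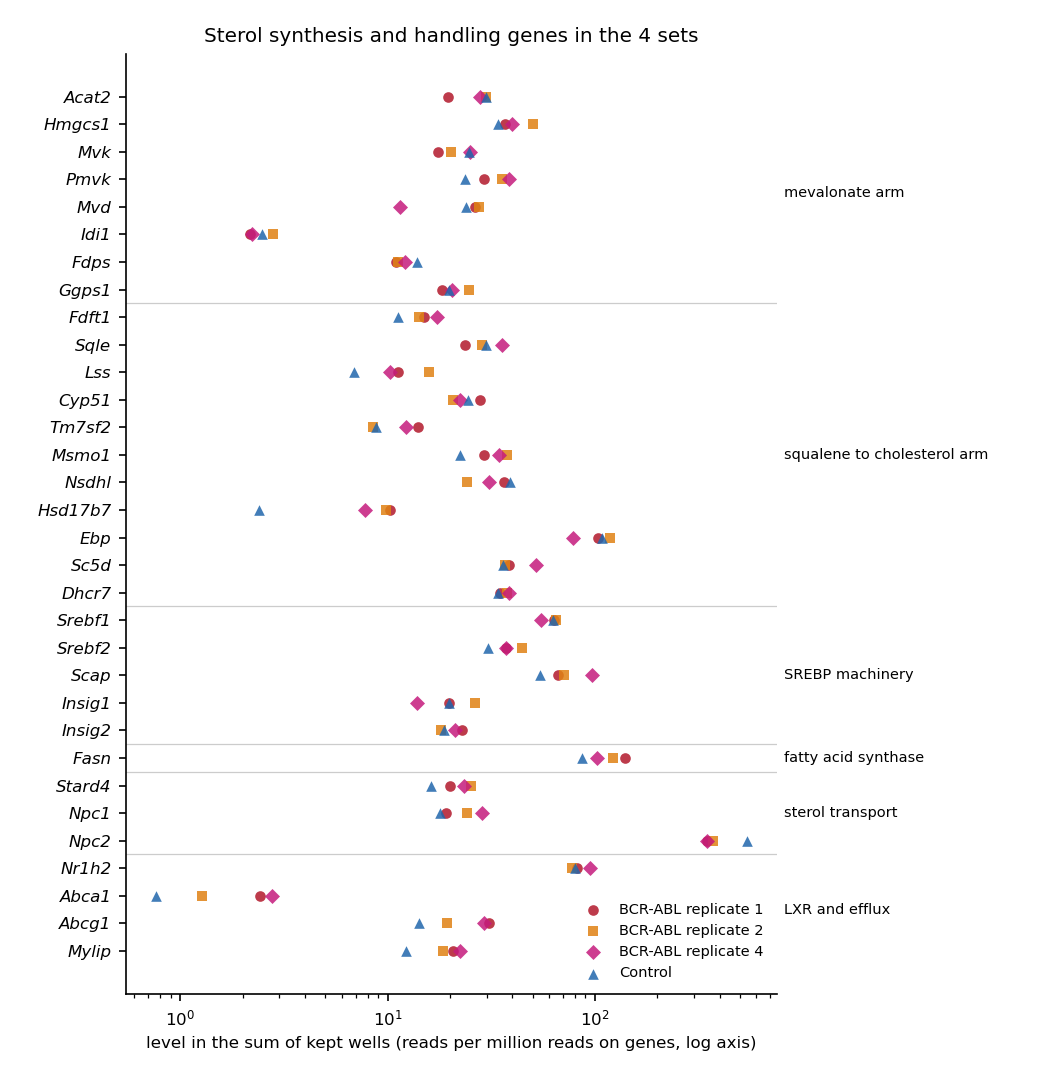
Level of each of the 32 genes in the sum of kept wells of each set, in reads per 1e6 reads on genes on a log axis; each point is 1 set and grey lines part the groups of genes. Hsd17b7, Abcg1 and Mylip have the Control triangle to the left of all BCR-ABL points, and Npc2 has it to the right.

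The first comparison set the 3 BCR-ABL sums against the Control sum, the contrast the study's sets were made for. No member passed the threshold of 0.05 on the adjusted p of edgeR's quasi-likelihood test, and neither did any of the 20324 genes tested (0%). An unadjusted p under 0.05 was reached by 3 members, against 7.18% of all genes, and DESeq2 called 2 members, Hsd17b7 higher and Npc2 lower, against 3.78% of the 18223 genes it gave an adjusted p. All 3 BCR-ABL sets lay above Control for 16 of 32 members, against 23.2% of all genes. All 3 lay below for 4, Acat2, Fdps, Nsdhl and Npc2, against 27.8% of all genes. For Acat2, BCR-ABL replicate 2 and Control were all but level, at 29.865 and 29.867 CPM. The log2 fold change was positive for 21 members and negative for 11, with a median of 0.21 beside 0.05 over all genes tested. In a sum over wells, more wells with the transcript and more transcript per well cannot be told apart, so shares of wells with a read are given for wells thinned to 674952 reads each.

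In the mevalonate arm, 8 genes from acetoacetyl-CoA to geranylgeranyl diphosphate, 3 log2 fold changes were positive and 5 negative, with a median of -0.07. Hmgcs1, the HMG-CoA synthase, had 36.9, 50.4 and 39.7 CPM in the BCR-ABL sets and 33.98 CPM in Control (log2 fold change 0.34 ± 0.26, SE). Pmvk, the phosphomevalonate kinase, stood at 29.1, 35.5 and 38.6 CPM against 23.7 CPM (0.55 ± 0.24). Both had Control lowest, under the nearest BCR-ABL set by less than the SD of the BCR-ABL sets for Hmgcs1 (7.12 CPM) and by more than it for Pmvk (4.82 CPM). Acat2, which joins acetyl-CoA units at the start, had 19.6, 29.87 and 28.04 CPM against 29.87 CPM, and Fdps, the farnesyl diphosphate synthase, had 11.0, 11.3 and 12.1 CPM against 13.9 CPM. Pmvk was found in 70.8%, 74.1% and 87.7% of thinned BCR-ABL wells and in 47.8% of Control wells. The other members of this arm, Mvk, Mvd, Idi1 and Ggps1, overlapped Control, with log2 fold changes between -0.23 and 0.12.

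The squalene to cholesterol arm held the member with the largest fold change of the synthesis genes. Hsd17b7 (ENSMUSG00000026675, chr1:169949535-169969241), the 3-ketosteroid reductase that finishes removal of the C4 methyl groups, had 10.3, 9.85 and 7.80 CPM in the BCR-ABL sets and 2.41 CPM in Control. The 3 BCR-ABL sets lay close together and Control lay below all of them. The log2 fold change was 1.98 ± 0.41 (SE), with p = 0.0061 and adjusted p = 0.619 by edgeR, and from 1.35 to 3.03 with adjusted p from 0.57 to 0.921 over 10 alternatives. Reads were found in 20%, 24.1% and 22.2% of thinned BCR-ABL wells and in 8.89% of Control wells, and 29.8% of the Control reads came from 1 well.

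Msmo1, the C4-methylsterol oxidase that starts the removal of the same C4 methyl groups, had 29.1, 37.6 and 34.6 CPM against 22.2 CPM (0.62 ± 0.24). Nsdhl, which works with both on the same methyl groups, went the other way, at 36.5, 24.1 and 30.9 CPM against 38.9 CPM (-0.33 ± 0.29). The 3 genes of C4 demethylation thus did not share a direction. Nsdhl lies on the X chromosome, and its higher sets, BCR-ABL replicate 1 and Control, are those with Xist in nearly every well, whose part in the result was not tested. Ebp, the other X-linked member, had 103.2, 117.8 and 78.2 CPM in BCR-ABL replicates 1, 2 and 4 and 108.1 CPM in Control. Its highest and lowest sets, replicates 2 and 4, are both sets with Xist in few or no wells. Lss, which closes squalene epoxide to lanosterol, had 11.2, 15.9 and 10.3 CPM against 6.91 CPM (0.87 ± 0.40), with 51.6% of Control reads in 1 well. Fdft1, the squalene synthase, had 14.96, 14.2 and 17.4 CPM against 11.2 CPM (0.49 ± 0.28). Sc5d, which acts on the sterol B ring near the end, had 38.5, 36.7 and 51.9 CPM against 35.97 CPM, and Dhcr7, which reduces that ring, had 34.8, 37.7 and 38.6 CPM against 34.1 CPM, so that Control was lowest for both by under 1 CPM. In this arm 7 log2 fold changes were positive and 4 negative, with a median of 0.25, and Sqle, Cyp51, Tm7sf2 and Ebp overlapped Control.

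Of the SREBP machinery, Srebf2, which encodes the SREBP that drives cholesterol genes, had 37.2, 44.5 and 37.2 CPM in the BCR-ABL sets and 30.3 CPM in Control (0.41 ± 0.22). Scap, its escort, had 66.2, 70.7 and 96.9 CPM against 54.6 CPM (0.53 ± 0.26). Control was the lowest set for both. Srebf1, which encodes the SREBP forms tied more to fatty acid synthesis, had 63.8, 64.9 and 54.7 CPM against 62.95 CPM (-0.02 ± 0.19). Insig1 had 19.8, 26.5 and 13.8 CPM against 19.8 CPM, and Insig2 had 22.8, 18.1 and 21.1 CPM against 18.7 CPM. Control lay within the BCR-ABL range for these 3 genes. Fasn (ENSMUSG00000025153, chr11:120805846-120824547), the fatty acid synthase, had 139.3, 122.2 and 101.9 CPM against 86.2 CPM (0.51 ± 0.25, adjusted p = 0.762 by edgeR).

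Among the transport genes Npc2 (ENSMUSG00000021242, chr12:84754562-84773152) had 346.7, 371.7 and 348.1 CPM in the BCR-ABL sets and 544.5 CPM in Control. The BCR-ABL values lay close together (355.5 ± 14 CPM, SD, n = 3) and Control lay above all of them. The log2 fold change was -0.60 ± 0.12 (SE), with p = 0.0062 and adjusted p = 0.619 by edgeR. Over the 10 alternatives it ran from -0.67 to -0.54 with adjusted p between 0.57 and 0.921, so the size held while no edgeR fit called it. None of these alternatives was a fit in Gfi1-only wells, a class described below, where the sets overlapped for Npc2. Npc2 had reads in 100% of thinned wells of every set, and no well held more than 5.48% of a set's reads. Its membrane partner Npc1 had 19.03, 24.2 and 28.5 CPM against 17.95 CPM (0.43 ± 0.30), and Stard4, a cytosolic sterol carrier, had 20.0, 25.2 and 23.4 CPM against 16.1 CPM (0.52 ± 0.25). Npc1 and Npc2, which hand cholesterol on in the lysosome, thus lay on opposite sides of Control.

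All 4 genes of the LXR and efflux group had positive log2 fold changes, with a median of 0.84, and none was called. Abcg1, the half-transporter that loads cholesterol onto lipoprotein particles, had 30.8, 19.4 and 29.1 CPM in the BCR-ABL sets and 14.2 CPM in Control (0.92 ± 0.36, p = 0.057, adjusted p = 0.706 by edgeR). It was found in 80%, 59.3% and 74.1% of thinned BCR-ABL wells and in 44.4% of Control wells. Mylip had 20.7, 18.5 and 22.4 CPM against 12.3 CPM (0.76 ± 0.26, p = 0.036, adjusted p = 0.669), with reads in 60%, 50% and 61.7% of BCR-ABL wells and 36.7% of Control wells. Control was lowest for both in level and in share of wells. Nr1h2 itself had 81.6, 77.8 and 94.4 CPM against 80.4 CPM, with Control inside the BCR-ABL range.

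Abca1, named although its mean lies under 5 CPM, had 2.43, 1.27 and 2.77 CPM against 0.759 CPM (1.52 ± 0.75). In Control, 84.9% of its reads came from 1 well, and the 3 Control wells with at least 10 reads of the macrophage genes C1qa, C1qb, C1qc, Cd5l and Spic held the same share. Without such wells its log2 fold change was 4.21 (adjusted p = 0.611 by edgeR). Those macrophage wells held 6.76% of Abcg1 and 1.05% of Mylip reads in Control, and no well of BCR-ABL replicates 1 and 2 and 1 of replicate 4 was of this kind. C1qa and C1qc were at 0 reads in every BCR-ABL set, and the whole list of 8 macrophage markers summed to 32.3, 57.04 and 102.4 CPM in the BCR-ABL sets and 30.97 CPM in Control, most of it Vcam1 in the BCR-ABL sets and Adgre1 in Control.

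The sets differ in their mix of fates, which moves with these results. Genes of granule fate summed to 71210, 67065 and 75847 CPM in the BCR-ABL sets and 59657 CPM in Control, and genes of monocyte fate to 6016, 6718 and 5358 CPM against 9168 CPM. Wells were therefore also compared by class, from at least 10 thinned reads of Irf8, a monocyte and dendritic regulator, of Gfi1, a neutrophil regulator, or of both; a well with fewer than 10 of 1 of them counted for the other only. Irf8-only wells numbered 13, 14, 0 and 51, wells with both 14, 19, 15 and 27, and Gfi1-only wells 35, 17, 62 and 8 in BCR-ABL replicates 1, 2 and 4 and Control.

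Within wells holding both regulators, a comparison chosen after the data had been seen, Npc2 had 309.4, 375.2 and 303.8 CPM in the BCR-ABL sets and 490.8 CPM in Control, and in Irf8-only wells 403.0 and 358.2 CPM against 618.0 CPM. In Gfi1-only wells, of which Control had 8, it had 369.6, 413.8 and 357.0 CPM against 358.4 CPM, so there the sets overlapped. Hsd17b7 in wells with both had 8.81, 11.6 and 5.04 CPM against 3.42 CPM, and in Irf8-only wells 7.34 and 10.3 CPM against 1.10 CPM. Control was lowest in both classes, but in Gfi1-only wells Hsd17b7 had 13.5, 9.73 and 7.95 CPM against 8.39 CPM, so there the sets overlapped. Abcg1 had 20.7, 22.6 and 18.4 CPM against 15.8 CPM in wells with both, but 19.2 and 10.2 CPM against 12.4 CPM in Irf8-only wells. Mylip had 21.2, 14.8 and 22.6 CPM against 8.03 CPM in wells with both, and 8.92 and 9.27 CPM against 11.2 CPM in Irf8-only wells, where its direction turned (log2 fold change -0.27). In Gfi1-only wells Abcg1 had 42.5, 23.6 and 29.9 CPM against 4.89 CPM, and Mylip 22.2, 35.9 and 20.4 CPM against 12.1 CPM. Control, with 8 such wells, was lowest for both there. For Abcg1 and Mylip the gap to Control thus depended on the class. No member was called in wells with both or in Irf8-only wells.

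**Figure D2:**
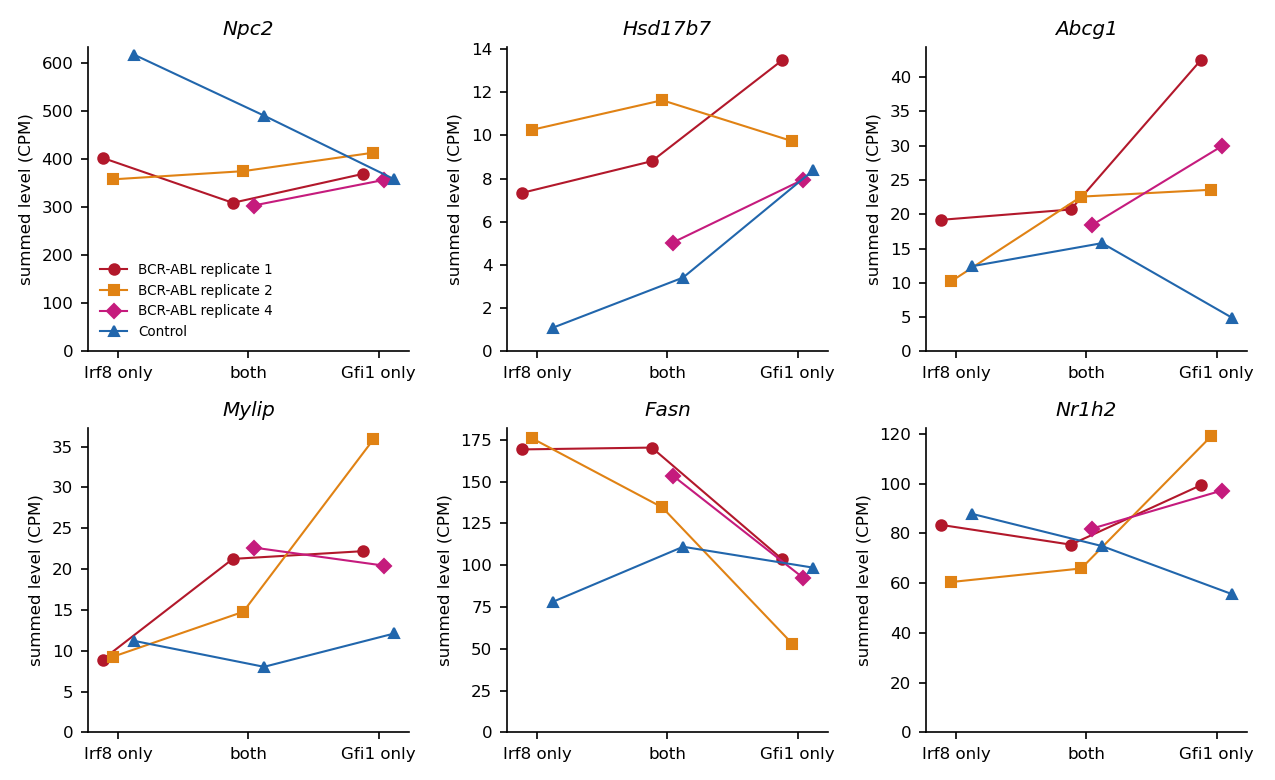
Summed level in CPM of 6 genes in wells with Irf8 only, with both Irf8 and Gfi1, and with Gfi1 only, 1 line per set; BCR-ABL replicate 4 has no Irf8-only wells and Control has 8 Gfi1-only wells. Control lies above the BCR-ABL sets for Npc2 in the left and middle classes and below them for Hsd17b7 in the same classes; in Gfi1-only wells Hsd17b7 of Control (8.39 CPM) lies above BCR-ABL replicate 4 (7.95 CPM).

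To follow the pathway per cell, a synthesis score was taken as the mean log2(CPM + 1) over the 19 enzymes in each of the 290 thinned wells. Its mean was 2.78, 2.79 and 2.71 in the BCR-ABL sets (2.76 ± 0.046, SD, n = 3) and 2.44 in Control, a difference of 0.32. The wells overlapped widely, from 1.10 to 4.20 in BCR-ABL replicate 1 and from 1.08 to 5.01 in Control. With 3 sets against 1 the smallest exact permutation p is 0.25, so no test was made. The summed CPM of the 19 enzymes per thinned well, to which strongly read genes contribute most, was 489, 511 and 508 against 478. The number of genes with a read per thinned well, 8698, 8618 and 8676 against 8361, and the reads on genes per spike-in read, a measure of RNA per well, with medians of 263, 263 and 226 against 203, moved with the score. Across wells the score's Spearman rho with reads per spike-in read was 0.67 (n = 65), 0.79 (n = 54), 0.57 (n = 81) and 0.44 (n = 90), as a description of wells that share a set. The part of RNA content in the difference was not tested.

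Each well also received a fate score, the mean z value of 12 granule genes minus that of 14 monocyte genes, with z taken within each set. Wells of the highest and lowest tercile (a split of each set into 3 equal groups) were compared, 21, 18, 27 and 30 wells per tercile. Terciles thus rank wells within a set, and the same side need not hold like cells in different sets. BCR-ABL replicate 4 had 0 Irf8-only wells and Control had 8 Gfi1-only wells. The mean synthesis score was 3.18, 3.08 and 3.03 in the monocyte-side tercile and 2.29, 2.31 and 2.32 in the granule-side tercile of the BCR-ABL sets, differences of -0.89, -0.77 and -0.70. In Control it was 2.40 and 2.44, a difference of 0.04. Genes per thinned well moved alike, by -817, -686 and -565 in the BCR-ABL sets and by -22.9 in Control, and their part was not tested. Within sets, 57 of the 290 wells lay within 0.1 of a limit between terciles.

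By class the same wells gave mean synthesis scores of 3.28 and 3.23 in Irf8-only wells, 3.21, 2.95 and 3.30 in wells with both and 2.45, 2.16 and 2.52 in Gfi1-only wells of the BCR-ABL sets. Control had 2.45, 2.42 and 2.33 in these classes. BCR-ABL sets were above Control in the first and second of these classes and overlapped it in Gfi1-only wells.

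Gene by gene, no member was called between fate terciles by edgeR, and no gene of 16376 was (0%). An unadjusted p under 0.05 was reached by 7 members, against 13.3% of all genes, and DESeq2 called the same 7, against 9.48% of the 15302 genes to which it gave an adjusted p. Of these members 2 were higher and 5 lower on the granule side. The direction was the same in all 4 sets for 2 members that were higher, Fdft1 and Npc1 (10.5% of all genes), and for 5 that were lower, Hmgcs1, Mvd, Ebp, Srebf2 and Fasn (12.3% of all genes).

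Fasn had 96.5, 64.9, 84.1 and 46.2 CPM in the granule-side tercile and 202, 175, 146 and 123 CPM in the monocyte-side tercile of BCR-ABL replicates 1, 2 and 4 and Control. It was lower on the granule side in every set, Control included. The log2 difference was -1.15 ± 0.16 (SE), with p = 0.00053 and adjusted p = 0.143 by edgeR, and between 0.121 and 0.507 over 10 alternatives. By class, however, Control had 78.1 CPM in Irf8-only, 111 CPM in both and 98.5 CPM in Gfi1-only wells, while the BCR-ABL sets had from 135 to 176 CPM in the first and second classes and 104, 52.98 and 92.6 CPM in Gfi1-only wells. The Control order for Fasn thus depends on how fate is read.

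Srebf2 had 35.4, 32.1, 22.7 and 23.7 CPM on the granule side and 52.7, 56.6, 45.9 and 51.3 CPM on the monocyte side (log2 difference -0.86 ± 0.18, adjusted p = 0.205 by edgeR). Mvd, the mevalonate diphosphate decarboxylase, had 16.8, 20.5, 7.71 and 16.8 CPM against 51.1, 36.2, 12.4 and 37.5 CPM (-1.04 ± 0.24). Ebp had 64.5, 67.9, 65.04 and 96.9 CPM against 122, 138, 89.8 and 120 CPM (-0.65 ± 0.16). These 3 genes were lower on the granule side in each set. Hmgcs1 was lower too, with log2 differences of -0.15, -2.29, -1.45 and -0.63 per set. Fdft1 went the other way, at 29.4, 22.9, 20.3 and 14.3 CPM against 13.04, 7.72, 12.3 and 6.59 CPM (1.17 ± 0.26, adjusted p = 0.216 by edgeR). Insig2 was higher on the granule side in 3 sets and level in BCR-ABL replicate 4, where the log2 difference was -0.06.

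Whether the fate difference itself differed between the BCR-ABL sets and Control was asked with an interaction term, on terciles ranked within each set. A different mix of cells in the terciles cannot be told apart there from a different fate effect. The term called no member and no gene of 18498 (0%), with a smallest adjusted p of 0.81 by edgeR. The interaction was negative for 15 of 19 synthesis enzymes, with a median log2 value of -0.65 beside -0.07 over all genes tested, and for 7 of 8 genes of the mevalonate arm, with a median of -0.97. Lss had the smallest p of the enzymes, with log2 differences of -0.02, 0.06 and -0.16 in the BCR-ABL sets and 2.16 in Control. That Control value rests on 3.02 against 15.2 CPM in a gene with 51.6% of its Control reads in 1 well. Npc2 had 401 CPM on the granule side and 691 CPM on the monocyte side of Control, a log2 difference of -0.78, beside -0.01, -0.03 and 0.54 in the BCR-ABL sets (interaction 0.98 ± 0.32, p = 0.034, adjusted p = 0.81 by edgeR). Nr1h2 was higher on the granule side in the BCR-ABL sets (0.68, 0.59 and 0.49) and not in Control (-0.16). All 4 genes of the LXR and efflux group had positive interactions.

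**Figure D3:**
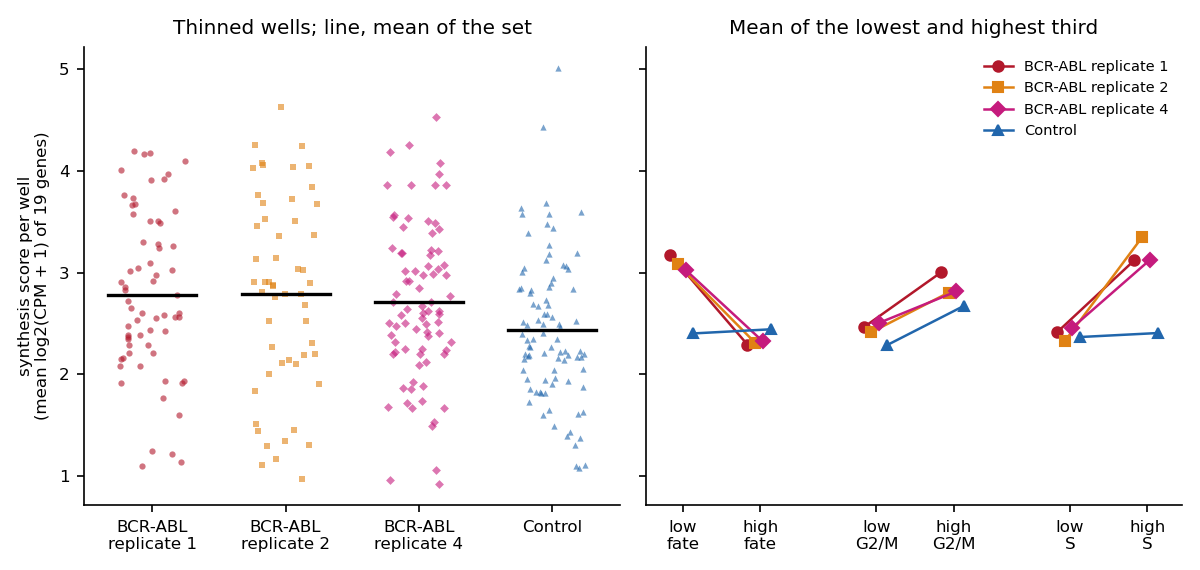
Left, synthesis score of each thinned well by set, with a line at the mean; right, mean score of the wells in the lowest and highest tercile of the fate, G2/M and S phase scores, 1 line per set. The BCR-ABL lines slope down with the fate score, by 0.70 to 0.89, and up with the S phase score, while the Control line differs by 0.04 in both.

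Cell cycle was read the same way, with the mean z value of 51 G2/M genes and of 42 S phase genes. The synthesis score was higher in the highest G2/M tercile of all 4 sets, by 0.54, 0.39, 0.31 and 0.39, and so was the number of genes per thinned well, by 1181, 1012, 933 and 765. The summed CPM of the enzymes showed no shared direction, with differences of -15.7, 12.3, -47.5 and 48.9 CPM. Along the S phase score the synthesis score was higher by 0.71, 1.02 and 0.66 in the BCR-ABL sets and by 0.04 in Control, and the summed CPM by 86.2, 216 and 82.4 CPM in those sets against -4.94 CPM in Control. Genes per thinned well differed by 767, 665, 543 and -49.7 between S phase terciles. Within 0.1 of a limit lay 74 wells for G2/M and 97 for S phase.

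No member was called between G2/M terciles by edgeR, where 0.713% of 16399 genes were, and 5 members had an unadjusted p under 0.05, against 11.3% of all genes. All 5 were lower in the highest tercile. The shares of all genes include the G2/M genes that set these terciles. DESeq2 called Fasn and Stard4, against 7.47% of 14756 genes. Fasn had 85.7, 68.3, 72.5 and 48.8 CPM in the highest and 131, 123, 147 and 106 CPM in the lowest tercile, and no set overlapped another across terciles. Its log2 difference was -0.90 ± 0.12, with p = 0.00057 and adjusted p = 0.0679 by edgeR, between 0.0297 and 0.303 over 9 alternatives. Stard4 had 9.44, 13.1, 8.48 and 10.7 CPM against 44.5, 31.2, 35.9 and 16.9 CPM (-1.56 ± 0.34, adjusted p = 0.21). Insig1, Cyp51 and Acat2 were lower in the highest tercile of each set, with log2 differences between -0.16 and -1.01. Higher in all 4 sets were 2 members, Fdps and Msmo1 (10.6% of all genes), and lower in all 4 were 6 members, Fasn, Stard4, Insig1, Cyp51, Acat2 and Mylip (9.99% of all genes).

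Between S phase terciles edgeR called no member and 0.26% of 16536 genes, a share that includes the S phase genes that set the terciles. An unadjusted p under 0.05 was reached by 10 members, 6 higher and 4 lower, against 16.6% of all genes, and DESeq2 called these 10 (13% of 15813 genes). Fasn again had the smallest p: it had 220, 193, 147 and 142 CPM in the highest and 100, 47.4, 61.8 and 60.2 CPM in the lowest tercile, with no overlap. The log2 difference was 1.44 ± 0.19, with p = 0.00035 and adjusted p = 0.0588 by edgeR, and between 0.02 and 0.224 over 9 alternatives. Fasn was thus highest in wells high for S phase genes, low in wells high for G2/M genes and low on the granule side. These readings are not independent, since fate and S phase scores had a Spearman rho of -0.29, -0.45, -0.17 and -0.17 across wells of the sets.

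Of the synthesis enzymes, Mvk, the mevalonate kinase, had 20.5, 27.3, 33.9 and 32.5 CPM in the highest S phase tercile and 15.3, 10.1, 8.54 and 14.9 CPM in the lowest (1.28 ± 0.31). Sqle, the squalene epoxidase, had 37.8, 40.6, 49.8 and 28.05 CPM against 17.6, 15.3, 28.5 and 23.7 CPM (0.92 ± 0.25). Cyp51, the lanosterol demethylase, had 44.3, 31.8, 27.9 and 27.8 CPM against 13.7, 13.9, 4.37 and 22.9 CPM (1.49 ± 0.42). All 3 were higher in the highest tercile of each set, with Control differences of 0.24 for Sqle and 0.28 for Cyp51 the smallest of their sets. Ggps1, which makes geranylgeranyl diphosphate, was lower in each set (-0.77 ± 0.26).

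Over all 19 enzymes, 13 S phase log2 differences were positive and 6 negative, with a median of 0.07 beside -0.009 over all genes tested. Of the 3 transport genes 1 was positive and 2 negative, and of the 4 LXR and efflux genes 1 was positive and 3 negative. Npc1 had 10.3, 11.9, 19.6 and 5.04 CPM in the highest S phase tercile and 33.7, 35.3, 36.4 and 24.7 CPM in the lowest (-1.58 ± 0.28, adjusted p = 0.108 by edgeR), without overlap. Abcg1 had 11.8, 11.6, 21.7 and 11.9 CPM against 48.3, 39.04, 39.2 and 20.4 CPM (-1.32 ± 0.29). Mylip had 8.63, 24.6, 11.8 and 9.36 CPM against 39.6, 27.99, 26.1 and 16.4 CPM (-1.05 ± 0.38). Stard4 was higher in 3 sets and level in BCR-ABL replicate 1, and Abca1, at under 5 CPM in every tercile, was higher in 3 sets and lower in BCR-ABL replicate 4. Members higher in the highest S phase tercile of all 4 sets numbered 6, Acat2, Mvk, Sqle, Cyp51, Srebf1 and Fasn (12.9% of all genes). Those lower in all 4 numbered 7, Pmvk, Ggps1, Insig2, Npc1, Npc2, Abcg1 and Mylip (14% of all genes).

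**Figure D4:**
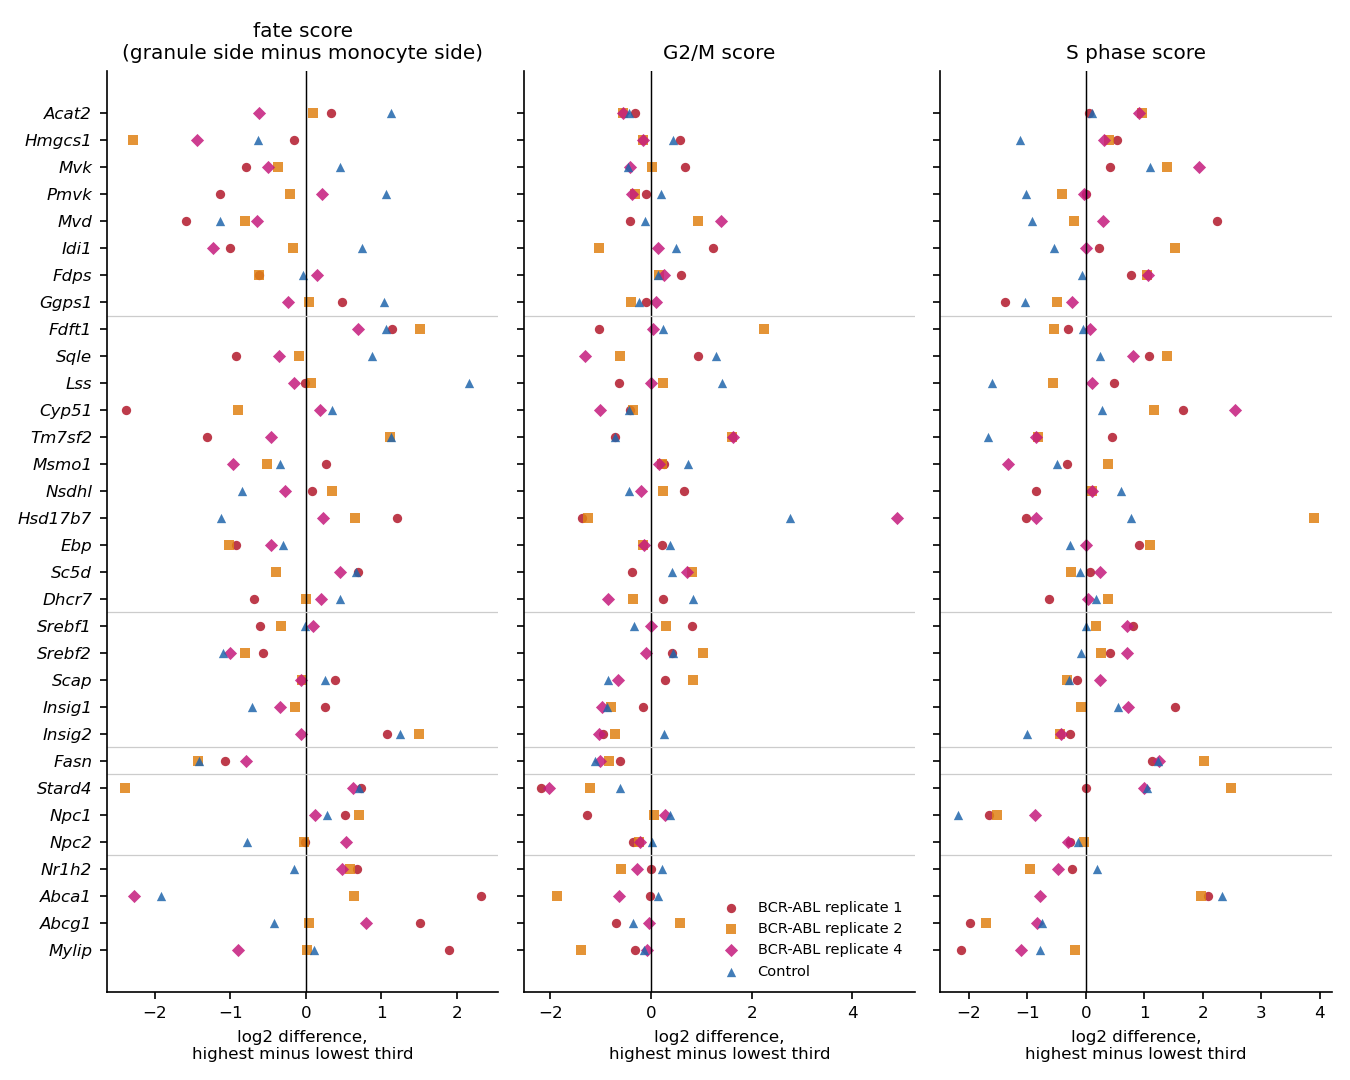
Log2 difference in summed level (CPM + 0.5) between the highest and lowest tercile of wells for the fate, G2/M and S phase scores, 1 point per set and gene. Fasn lies left of 0 in the fate and G2/M panels and right of 0 in the S phase panel for all 4 sets.

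Single enzymes, taken in pairs, shared little variation from well to well. For the 8 synthesis genes with a read in at least 50% of wells of each set, the median Spearman rho over 28 pairs was 0.01, 0.08, 0.04 and -0.003 in BCR-ABL replicates 1, 2 and 4 and Control, beside 0.02, 0.02, 0.02 and 0.01 over pairs of 7727 genes detected as often. The pair with the highest mean was Hmgcs1 and Dhcr7, with rho from 0.18 to 0.28. Scores averaged over the mevalonate arm and over the squalene to cholesterol arm did move together, with rho of 0.38, 0.54, 0.38 and 0.31. Both arm scores also rose with reads on genes per spike-in read, with rho from 0.29 to 0.72, and the part of RNA content was not tested. Counts were sparse, and these values are descriptions of wells within a set.

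Of 50 other genes of sterol and fatty acid metabolism, 47 were tested in the BCR-ABL comparison, none was called by edgeR, and 24 log2 fold changes were positive and 23 negative, with a median of 0.01. The 4 with the smallest p were Elovl6, Scd2, Acss2 and Nr1h3. Scd2, a stearoyl-CoA desaturase, had 239, 192 and 215 CPM in the BCR-ABL sets and 131 CPM in Control (0.74 ± 0.19, adjusted p = 0.642 by edgeR). Elovl6, which lengthens palmitate, had 25.4, 25.5 and 22.7 CPM against 42.8 CPM (-0.78 ± 0.20). It was also lower on the granule side in all 4 sets (-2.48 ± 0.51), and the part of the fate mix was not tested. Acss2, which makes acetyl-CoA from acetate, had 5.01, 7.49 and 5.99 CPM against 15.4 CPM (-1.30 ± 0.35). Of its reads, 37.1% in Control and 50.9% in BCR-ABL replicate 2 came from 1 well. These 3 genes of fatty acid supply did not overlap Control but went in different directions. Nr1h3, which encodes LXR alpha, had 6.52, 3.72 and 2.54 CPM against 0.487 CPM, with reads in 21.5%, 11.1% and 9.88% of thinned BCR-ABL wells and 1.11% of Control wells (3.15 ± 0.84, adjusted p = 0.642). Of the other sterol and isoprenoid enzymes, 11 of 13 had negative log2 fold changes, with a median of -0.13, none called.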

How the data were processed

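The deposited tables hold raw read counts per Ensembl gene and well, made by the authors with GSNAP and HTSeq 0.5.3p3 on mm10, per the submitters' processing notes; libraries were SMART-seq2 with Nextera XT, per the labels' protocols. The annotation and strand setting were not given in the sources used here, and reads of overlapping or antisense genes may be mixed. Symbols and positions came from GENCODE vM21 (935 rows without a symbol). Rows of spike-ins and summaries were left out of totals. Reads carry no molecular identifiers.

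Of 384 wells, 323 were kept, those with 50000 or more gene reads and 1000 or more genes (50434 to 4758711 reads each). No doublet caller was run on these single-cell wells. Counts were summed per set, or per set and score tercile with the set as block, and tested with edgeR 4.0.16 (TMM, filterByExpr, quasi-likelihood F test, Benjamini-Hochberg over all genes, threshold 0.05) in R 4.3.3; DESeq2 1.42.0 was an alternative. The single Control set was taken to have the spread of the BCR-ABL sets (2 residual degrees of freedom). Terciles carry 3 residual degrees of freedom. For fate, G2/M and S phase alike, shares of all genes between terciles include the genes of the score that set the terciles. Scores and shares used 290 wells thinned to 674952 reads, where 1 read is 1.48 CPM; 33 shallower wells were left out. The fits were also run on simulated counts with less spread between sets than the real data, so that run does not show how they perform here.

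Values in each set are given for members with a mean of at least 5 CPM whose BCR-ABL sets all lie on 1 side of Control, for members past the threshold and for the SREBP machinery; for the terciles, members with an unadjusted p under 0.05 were picked after their values were seen, as was Abca1. Of the other pathway genes, the 4 with the smallest p are named, and outside the lists the 12 genes nearest to the synthesis score. Members and lists were chosen with earlier results of these data known. A few genes are left out of the text.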

Additional observations from a re-analysis of the deposited data

Results flagged for a closer look

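Between the highest and lowest fate tercile, every BCR-ABL set lay on the other side of 0 from Control for 4 summaries, all drawn from the same 19 enzymes. In Control the difference was 0.0405 for the synthesis score, 0.086 for the mevalonate arm and 0.0077 for the squalene to cholesterol arm. It was 12.001 CPM for the summed level. All BCR-ABL sets were below 0 in each summary. The score differences in Control were small beside the SD over its wells, from 0.71 to 0.99. Genes per thinned well moved by -22.9 in Control and by -565 to -817 in the BCR-ABL sets. Between S phase terciles the same held for the mevalonate arm (-0.105 in Control) and the summed level (-4.94 CPM in Control), with all BCR-ABL sets above 0. These differences between the groups were not tested as scores. For fate, the interaction test per gene called no gene, and for S phase no such test was run.

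Of 34 groups of 4 sets checked for a set far from the others, 4 had one. They were Cyp51 between G2/M terciles (-1.01 in BCR-ABL replicate 4) and the mevalonate arm score between S phase terciles (-0.105 in Control). Also among them, between S phase terciles, were Fasn (2.01 in BCR-ABL replicate 2) and Abca1 (-0.79 in BCR-ABL replicate 4). The rule picks about 1 in 20 groups by chance only if groups are unselected and independent. The groups checked were genes picked for an unadjusted p under 0.05 in these same sets, and summaries that share enzymes. That rate thus gives no chance count to set beside the 4 found.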

How the results depend on the processing

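By edgeR, no member was called in the BCR-ABL comparison, between fate terciles or in the interaction under any alternative run, including each left-out set. DESeq2 called 2 members against Control, 7 between fate terciles, 2 between G2/M terciles and 10 between S phase terciles. Fasn was the 1 member called between G2/M groups with wells split at the median, and 1 member, Fasn, was called between S phase groups with no filter on low counts, with wells split at the median, with thinned reads and with no replicate block (adjusted p = 0.0588 as reported and 0.0467 with no replicate block). With no replicate block 0 members were called for fate and 0 for G2/M. The synthesis score difference of 0.32 became 0.124 with log2(CPM + 10), 0.225 in unthinned wells and 0.0738 as a log2 ratio of summed CPM, and 0.318 in wells with at least 500000 reads. No paired analysis was possible for BCR-ABL against Control because the sets share fewer than 2 replicate numbers.

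Alternatives were run gene by gene for the 23 members with a value given in each set. Of these, log2 fold changes against Control turned sign with 1 set left out for Srebf1 (from -0.067 to 0.062, positive without BCR-ABL replicate 4) and Insig1 (from -0.22 to 0.25, negative without replicate 2). In wells with Irf8 and Gfi1 they turned for Acat2 (0.29), Fdps (0.058), Sc5d (-0.22), Srebf1 (0.17) and Insig2 (-0.42), and in wells with Irf8 only for Fdft1 (-0.22), Dhcr7 (-0.13), Srebf1 (0.11), Insig1 (-0.23), Insig2 (-0.16) and Mylip (-0.27). These well classes and the runs without macrophage wells were chosen after seeing the data, and the cause of the turns was not tested. The biological coefficient of variation between sets was 0.68 in the BCR-ABL comparison, over sums of at least 121.4 times 1e6 reads.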

Other observations

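Genes outside the 32 members were ranked by how they varied with the synthesis score across wells. Among 7695 genes with a read in at least 50% of thinned wells of each set, the highest mean Spearman rho over the sets belonged to Fkbp4 (0.50), Tuba1b (0.49), Ran (0.48), Hspa9 (0.48), Got2 (0.47), Gm13461 (0.47), Eif5a (0.47), Ptges3-ps (0.47), Slc25a5 (0.46), Calr (0.46), Gm9755 (0.46) and Ldha (0.46), beside a median of 0.08. Fkbp4, Hspa9 and Calr are chaperones or co-chaperones, and Slc25a5 and Got2 are mitochondrial. In Control the correlations ran from 0.23 for Ldha to 0.44 for Fkbp4. The score itself had a rho of 0.67, 0.79, 0.57 and 0.44 with reads on genes per spike-in read in BCR-ABL replicates 1, 2 and 4 and Control. The part of RNA content in this ranking was not tested. Gm13461, Ptges3-ps and Gm9755 are predicted genes or pseudogenes whose reads may come from near copies.

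Marker lists of other cell types differed in level. Basophil and mast cell markers summed to 304, 515 and 266 CPM in BCR-ABL replicates 1, 2 and 4 and 403 CPM in Control, and dendritic markers to between 29.9 and 80.8 CPM. Lymphoid markers summed to between 0.103 and 0.305 CPM in every set. Eosinophil markers reached 1255 CPM in BCR-ABL replicate 4, against at most 5.46 CPM in the other sets.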
